A study of Anopheles gambiae with 8 samples.

Results

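The mitochondrial genome of *An. gambiae* was represented by 37 of the 13763 genes in the count table, taken as every row placed on the Mt chromosome. RefSeq annotates the mitochondrial genome of the same species with 13 protein-coding genes, 2 rRNA genes and 22 tRNA genes. Of the 37 rows, 36 had the same start and end as a RefSeq gene and 1 had the same end with a start 1 base apart. Symbols and gene types given here come from that match. RefSeq gave the tRNA genes and the rRNA genes no symbol, so tRNA genes are named by their identifiers and the longer and the shorter rRNA gene are called lrRNA and srRNA.

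RNA was measured in cultures of Sua 4.0, an established *An. gambiae* cell line. The 20E group received 20-hydroxyecdysone (20E), the steroid hormone that female mosquitoes make after a blood meal, in ethanol, and the EtOH group received the ethanol alone (10% by the labels in both groups, while the study's methods give another strength). Both groups were harvested after 24 h, with 4 libraries each, and the labels name no genetic change in either. The sample titles number the libraries 1 to 4 in each group. Neither the titles nor the study's methods state that libraries of the same number came from the same experiment. A 20E and an EtOH library with the same number are treated here as a pair. Their deviations from the group means correlated at 0.646 to 0.835, against at most 0.0854 for other pairs.

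The mitochondrial genome encodes a small set of subunits of the respiratory chain and the RNA of the ribosome that translates them. All other proteins of the organelle are made from nuclear genes. Both strands are transcribed as long precursors, from which tRNAs are cut out between the coding parts, and the mature mRNAs and rRNAs of animals carry short poly(A) tails. The libraries came from a kit that selects poly(A) RNA. The levels below are therefore those of mitochondrial RNA that the selection kept.

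The 20E libraries held 6865599 to 14878014 counts and the EtOH libraries 7761718 to 13566683. The lowest total in each group was that of replicate 1. *HR4*, an early gene of the ecdysone response, had 918 to 1927 counts in the 20E libraries and 1 to 3 counts in the EtOH libraries, with no overlap of the groups. Levels are CPM, the count per 1e+06 counts of the TMM-scaled library. Fold changes are 20E over EtOH on the log2 scale, tested by quasi-likelihood in edgeR over 8180 genes with a limit of 0.1 on the adjusted p. There were 2 fits, one with treatment alone and one that also holds the replicate number as a block. The standard error (SE) of a fold change is its absolute log2 value over the root of the F statistic.

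Mitochondrial genes took a smaller share of the library after 20E in each of the 4 pairs. They made up 18.9%, 7.75%, 7.105% and 13.04% of all counts in 20E replicates 1, 2, 3 and 4, and 21.2%, 15.8%, 11.0% and 16.0% in the EtOH replicates. The group means were 11.7% ± 5.48 after 20E and 16.0% ± 4.18 after EtOH (SD, n = 4 each), and the ranges of the groups overlapped. Within the pairs the log2 ratio of the shares was -0.17, -1.03, -0.63 and -0.30. Replicates 2 and 3 thus held the larger differences and replicates 1 and 4 the smaller ones. No p is given for a sum over these genes. A share cannot tell apart less mitochondrial RNA per cell and more nuclear RNA per cell. Replicate 1, with the lowest depth of both groups, had the highest mitochondrial share in both, and the part of depth in the share was not tested.

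Most of this share came from lrRNA. It held 16.1%, 6.04%, 5.60% and 10.7% of all counts in the 20E replicates and 17.7%, 11.8%, 8.27% and 13.2% in the EtOH replicates. The 13 protein-coding genes together held 2.76%, 1.70%, 1.51% and 2.38% after 20E and 3.52%, 3.94%, 2.70% and 2.84% after EtOH. In both classes the 20E library was the lower one of each pair. The coding part of the mitochondrial counts was 14.6%, 21.997%, 21.2% and 18.3% in the 20E replicates, against 16.6%, 24.968%, 24.6% and 17.8% in the EtOH replicates. It was lower after 20E in pairs 1, 2 and 3 and higher in pair 4.

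**Figure D1:**
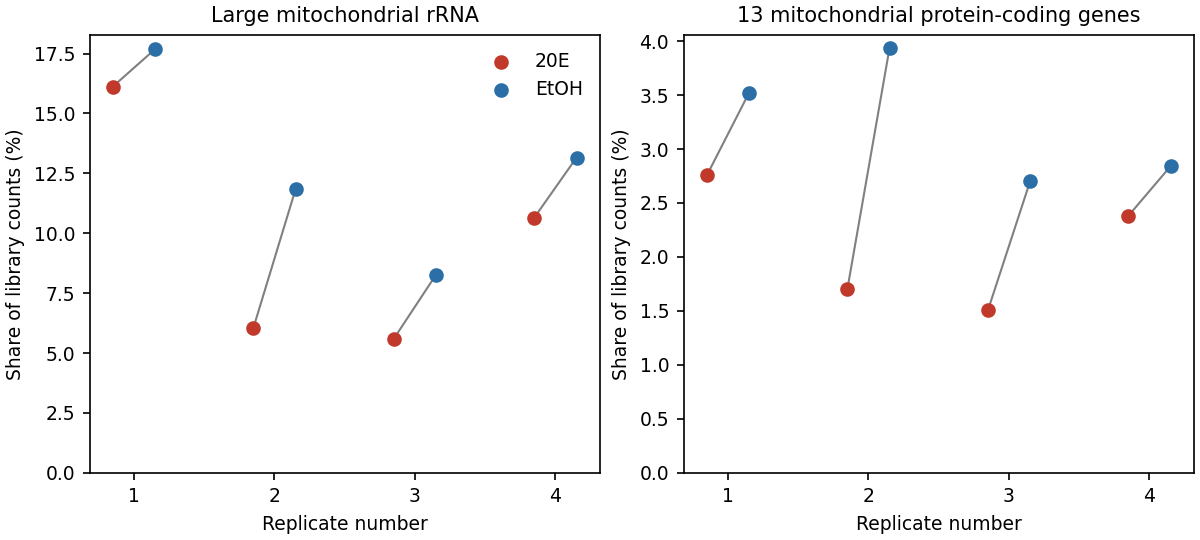
Share of library counts (%) taken by lrRNA and by the 13 mitochondrial protein-coding genes, for replicate numbers 1 to 4, with 20E (red) left of EtOH (blue) and a line joining each pair. Each 20E point lies below its EtOH partner, from 16.1% against 17.7% for lrRNA in pair 1 to 6.04% against 11.8% in pair 2.

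Length separated the genes that were counted from those that hardly were, and it cannot be told apart from gene type here. All 15 genes above 100 bases in length (162 to 1743 bases, the 13 protein-coding and 2 rRNA genes) had counts and passed edgeR's expression filter. None of the 22 genes below 100 bases (64 to 72 bases, all tRNA) passed it. The tRNA-length genes summed to 32 counts over the 20E libraries and 23 over the EtOH libraries, while the longer genes summed to 5039075 after 20E and 6679390 after EtOH. The number of tRNA-length counts was 9, 7, 7 and 9 in the 20E replicates and 14, 3, 5 and 1 in the EtOH replicates. Only 9 tRNA genes had any count, and 13 had 0 in all 8 libraries. A count of 0 in a group allows a level of up to 0.0596 CPM after 20E and 0.0717 CPM after EtOH, taken as 3 counts over the 4 libraries and covering counting error only.

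The 2 tRNA genes with the highest mean level were AGAP028363 (Mt from 1360 to 1425, minus strand) and AGAP028374 (Mt from 5909 to 5972, plus strand). AGAP028363 had 8, 0, 1 and 3 counts in the 20E replicates and 4, 0, 1 and 0 in the EtOH replicates. AGAP028374 had 0, 5, 6 and 4 counts in the 20E replicates and 0, 0, 1 and 1 in the EtOH replicates. With no expression filter AGAP028374 had a log2 fold change of 2.31 (SE 1.05, unadjusted p = 0.0528, adjusted p = 0.937, edgeR) without the block and 2.35 (SE 1.38, adjusted p = 0.392) with it, so it was called in neither fit. These values rest on 15 counts after 20E and 2 after EtOH. All 8 counts of AGAP028390 (Mt from 12582 to 12647, minus strand) came from EtOH replicate 1.

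Levels of the 15 longer genes, expressed per kb of gene, ran over several orders of magnitude. lrRNA was highest with a mean of 72619.8 CPM per kb after 20E and 101585 CPM per kb after EtOH. It was followed by COX1 at 6785 and 11125 CPM per kb after 20E and after EtOH, COX3 at 4703 and 7268, and COX2 at 3851 and 5745. This order of lrRNA, COX1, COX3, COX2 and then CYTB held in 8 of 8 libraries. CYTB and ATP6 lay close to each other, at 1887 and 1687 CPM per kb after 20E and 3365 and 3354 CPM per kb after EtOH, with CYTB the higher in 7 of 8 libraries. ND4 and ND1 came next, at 205 and 113 CPM per kb after 20E and 411 and 177 CPM per kb after EtOH. The lower genes were less clearly ordered. srRNA was above ND2 per kb in 3 of 8 libraries, and ATP8 above ND6 in 5 of 8.

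The lowest of the protein-coding genes per kb were ATP8 at 4.62 CPM per kb after 20E and 4.25 after EtOH, and ND6 at 4.58 CPM per kb after 20E and 2.26 after EtOH. Both lie beside abundant genes on the same strand. ATP8 shares 7 bases with ATP6, which was 365 times as high per kb after 20E and 789.5 times after EtOH by group means. This ratio was 160 to 517 in the 20E libraries and 519 to 1160 in the EtOH libraries. ND6 shares 1 base with CYTB, which was 286 to 597 times as high per kb in the 20E libraries and 486 to 4303 times in the EtOH libraries, with the lowest EtOH value in replicate 4. ND4L shares 7 bases with ND4, which was 13.5 times as high per kb after 20E and 18.2 times after EtOH by group means. That ratio was 5.67 to 34.4 in the 20E libraries and 7.44 to 27.2 in the EtOH libraries, and its change went both ways over the pairs. Spans on this genome are packed, since 36 of the 37 genes touch or share bases with a neighbour on either strand, and the exception, ND1, is 6 bases from the next gene. No tRNA gene lies between ATP8 and ATP6, ND6 and CYTB, or ND4L and ND4. Whether the members of such a pair lie on separate RNAs was not tested. How fragments that touch more than 1 gene were counted is not given in the sources used here. Its part in these levels, and in their changes after 20E, was not tested.

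The 2 rRNA genes, which are neighbours on the minus strand with a tRNA gene between them, were far apart in level. lrRNA exceeded srRNA per kb by 1754 to 6797 times in the 20E libraries and by 1196 to 7158 times in the EtOH libraries. Both are structural RNAs of the mitochondrial ribosome, lrRNA of its large subunit and srRNA of its small subunit. Their levels are those of RNA that the poly(A) selection kept, and the part of the selection in this gap was not tested.

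**Figure D2:**
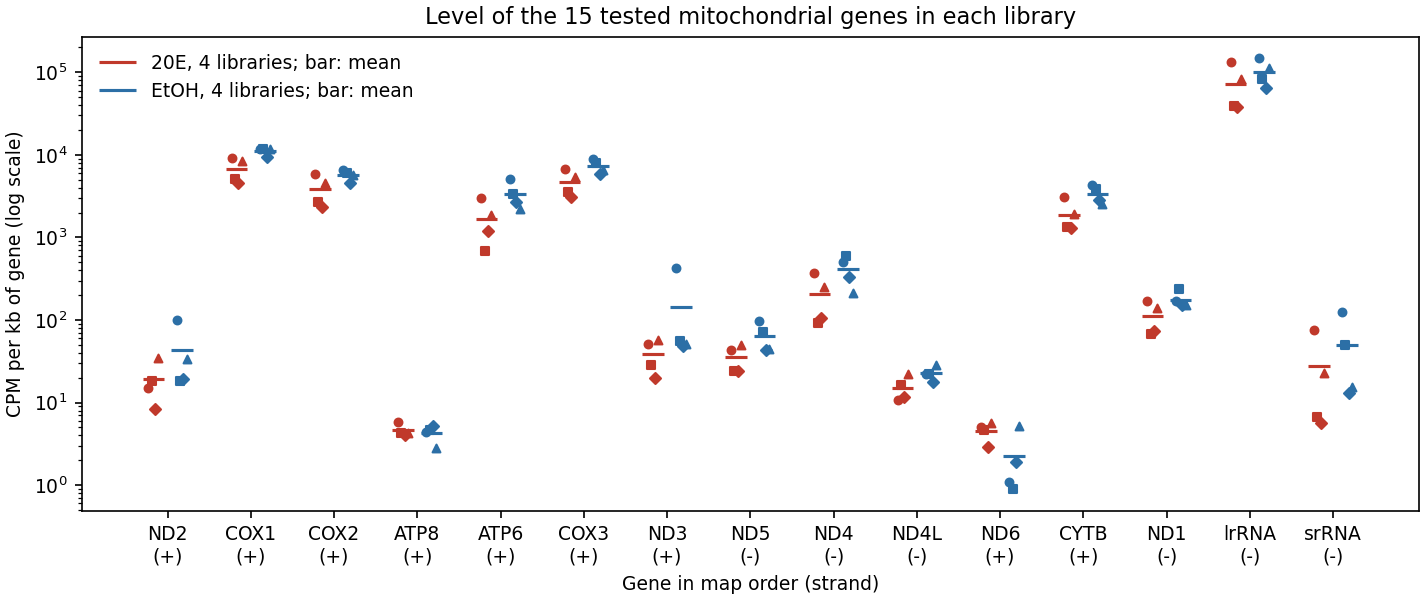
CPM per kb of gene on a log axis for the 15 tested mitochondrial genes in map order with their strand, 20E (red) left of EtOH (blue). Circle, square, diamond and triangle are replicates 1, 2, 3 and 4, and bars are group means. lrRNA stands highest, at mean levels of 72619.8 after 20E and 101585 after EtOH, and ATP8 and ND6 stand lowest.

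Of the 15 tested genes, 13 had a log2 fold change below 0, where 48.8% of all 8180 tested genes had one. Their median was -0.71 without the block and -0.78 with it, beside medians of 0.01 over all tested genes in both fits. With treatment as the only term edgeR called 0 of the 15 genes, and it called 0.795% of all tested genes (0.513% higher and 0.281% lower). At an unadjusted p under 0.05 there were 4 of the 15 (COX1, ND3, ND5 and CYTB), all of them lower, where the share over all genes was 6.81% in either direction and 3.64% lower. DESeq2 and limma-voom without a block also called 0 at the adjusted limit, where they called 2.09% and 0.758% of all tested genes. At an unadjusted p under 0.05 there were 7 of the 15 in DESeq2 and 6 in limma-voom, where the shares over all genes were 6.99% and 6.94%. With the replicate block edgeR called 8 of the 15, all lower after 20E, when it called 9.11% of all genes lower, 8.34% higher and 17.4% in either direction. These were COX1, COX2, COX3, ATP6, CYTB, ND3, ND5 and lrRNA. At an unadjusted p under 0.05 the blocked fit had 13 of the 15 lower and ND6 higher, against 13.4% of all genes lower and 26.5% in either direction. Of the 15 genes, 7 were lower after 20E in 4 of 4 pairs, and of all tested genes 16.2% were.

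COX1, COX2 and COX3 encode the core subunits of cytochrome c oxidase (complex IV), which passes electrons to oxygen. COX1 (AGAP028364, Mt from 1424 to 2960, plus strand) had 14161, 7740.1, 6931 and 12881 CPM in 20E replicates 1, 2, 3 and 4, against 17914, 18119, 14445 and 17919.7 CPM in the EtOH replicates. It was the single gene of the 15 whose highest 20E library lay below its lowest EtOH library, and of all tested genes 2.56% were apart in that way. No mitochondrial gene was apart in the other direction, as 2.18% of all tested genes were. The log2 fold change was -0.71 (SE 0.27, adjusted p = 0.606 from edgeR) without the block and -0.78 (SE 0.17, adjusted p = 0.0173) with it. COX1 was thus called lower with the block only.

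COX2 (AGAP028366, Mt from 3032 to 3716, plus strand) had 3999.7, 1838, 1610.2 and 3104 CPM in the 20E replicates and 4546, 4079, 3166 and 3951 CPM in the EtOH replicates. 20E replicate 1 lay above EtOH replicates 3 and 4, so the groups overlapped although the 20E library was lower in each pair. COX2 changed by -0.66 with the block (SE 0.17, adjusted p = 0.0304 from edgeR), a call lost without pair 3 at an adjusted p of 0.128. COX3 (AGAP028371, Mt from 4703 to 5489, plus strand) had 5350.1, 2776, 2407 and 4272 CPM after 20E and 6926, 6238, 4555 and 5160.3 CPM after EtOH. Its change with the block was -0.68 (SE 0.16, adjusted p = 0.0232 from edgeR), again with an overlap made by 20E replicate 1. Without the block neither gene was called, at adjusted p of 0.893 for COX2 and 0.753 for COX3 in edgeR. The ratio of COX1 to COX2 counts per kb was 1.58 to 1.92 in the 20E libraries and 1.76 to 2.03 in the EtOH libraries. It was lower after 20E in 4 of 4 pairs, at log2 differences of -0.15, -0.08, -0.08 and -0.13, and was not tested.

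CYTB encodes cytochrome b, the mitochondrially encoded subunit of complex III. CYTB (AGAP028387, Mt from 10413 to 11549, plus strand) had 3461, 1499.6, 1464 and 2158 CPM in the 20E replicates, against 4854, 4354, 3239 and 2858 CPM in the EtOH replicates. The 20E library was lower in 4 of 4 pairs, at log2 ratios of -0.49, -1.54, -1.15 and -0.41, with an overlap made by 20E replicate 1. The log2 fold change was -0.83 (SE 0.32, adjusted p = 0.606) without the block and -0.89 (SE 0.18, adjusted p = 0.0124) with it in edgeR, the lowest adjusted p among the mitochondrial genes in the blocked fit.

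ATP6 and ATP8 encode parts of the membrane portion of ATP synthase (complex V), ATP6 being part of its proton path. ATP6 (AGAP028370, Mt from 4023 to 4703, plus strand) had 2052, 466, 816 and 1262 CPM in the 20E replicates and 3476, 2315, 1833 and 1512 CPM in the EtOH replicates. Its pair ratios were -0.76, -2.31, -1.17 and -0.26, so pair 2 held the largest difference and pair 4 the smallest. In edgeR ATP6 was not called without the block (-0.99, SE 0.45, adjusted p = 0.752). It was called lower with the block (-1.12, SE 0.27, adjusted p = 0.0257, edgeR).

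ATP8 (AGAP028369, Mt from 3868 to 4029, plus strand) did not share this direction. It had 6, 10, 11 and 9 counts in the 20E replicates and 5, 8, 11 and 5 in the EtOH replicates. The 20E libraries averaged 0.748 ± 0.132 CPM and the EtOH libraries 0.688 ± 0.166 CPM (SD, n = 4 each), and edgeR gave it an adjusted p of 0.999 at a log2 fold change of 0.10 (SE 0.41). The pair ratios were 0.41, -0.11, -0.34 and 0.62, and the 95% counting interval of each included 0 (exact binomial, for counting error only). These intervals ran from -1.57 to 2.46 in pair 1 and from -1.60 to 1.43 in pair 2. In pairs 3 and 4 they ran from -1.69 to 1.01 and from -1.12 to 2.54. The ATP6 ratio lay inside the interval in pairs 1, 3 and 4 and outside it in pair 2 only. The sign of the fold change turned to -0.01 without 20E replicate 1 and to -0.06 without EtOH replicate 4.

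The 7 ND genes encode membrane subunits of NADH dehydrogenase (complex I). The pair ratios of 6 of them had a larger SD over the 4 pairs (0.73 to 1.33) than those of the COX genes (0.43 to 0.47), and ND4L had a smaller one (0.29). ND3 (AGAP028373, Mt from 5557 to 5910, plus strand) had 18.1, 10.0, 6.93 and 20.3 CPM in the 20E replicates and 150.2, 19.5, 17.2 and 18.2 CPM in the EtOH replicates. EtOH replicate 1 stood far above the other EtOH libraries, and pair 4 went slightly the other way. In edgeR ND3 was not called without the block (-1.89, SE 0.78, adjusted p = 0.693). It was called lower with the block (-1.28, SE 0.40, adjusted p = 0.0716, edgeR). Without EtOH replicate 1 its log2 fold change was -0.41, and the blocked fit without pair 1 gave -0.69 at an adjusted p of 0.131 by edgeR. The call was also lost without pair 2 or pair 3, at 0.106 and 0.180. DESeq2 with the block and all pairs kept did not call ND3 either, at an adjusted p of 0.183.

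ND5 (AGAP028380, Mt from 6304 to 8046, minus strand) had 76.5, 41.7, 42.0 and 86.4 CPM in the 20E replicates and 170.4, 123, 75.0 and 77.7 CPM in the EtOH replicates. It was lower after 20E in pairs 1, 2 and 3, by ratios of -1.16, -1.56 and -0.84, and higher in pair 4 at 0.15. ND5 was called with the block (log2 fold change -0.85, SE 0.22, adjusted p = 0.0365, edgeR) and not without it (adjusted p = 0.683). The blocked call was lost when pair 2 or pair 3 was left out, at 0.111 and 0.110.

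ND4, ND1, ND4L and ND2 were called in neither fit. ND4 (AGAP028382) had 499, 124, 143 and 336 CPM in the 20E replicates, against 671, 803, 449 and 283 CPM in the EtOH replicates, and its pair ratios ran from -2.70 in pair 2 to 0.24 in pair 4. ND1 (AGAP028389) had 159, 63.7, 68.8 and 134 CPM after 20E and 159, 222, 145 and 143 CPM after EtOH, so pair 1 was level. In both genes pairs 2 and 3 held most of the difference. With the block the adjusted p from edgeR was 0.102 for ND4, 0.101 for ND1 and 0.104 for ND4L, just past the limit.

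ND4L (AGAP028383) had 21, 72, 59 and 87 counts in the 20E replicates and 47, 72, 72 and 96 in the EtOH replicates, and was lower in CPM in 4 of 4 pairs at ratios of -1.02, -0.43, -0.63 and -0.37. ND2 (AGAP028360) had 15.4, 18.5, 8.56 and 35.5 CPM after 20E and 102, 18.6, 19.7 and 34.8 CPM after EtOH. Pairs 2 and 4 of ND2 were level and pair 1 gave a ratio of -2.73. Its log2 fold change of -1.16 without the block (adjusted p = 0.910, edgeR) was -0.32 without EtOH replicate 1. ND2 and ND3 thus both had their highest level in EtOH replicate 1, as did COX2, COX3, ATP6, CYTB, ND5, lrRNA and srRNA.

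ND6 (AGAP028386, Mt from 9889 to 10413, plus strand) was the single gene of the 15 that was higher after 20E in 4 of 4 pairs, and 17% of all tested genes were. It had 17, 35, 25 and 39 counts in the 20E replicates, against 4, 5, 13 and 30 counts in the EtOH replicates. The levels were 2.68, 2.42, 1.51 and 3.005 CPM after 20E and 0.570, 0.467, 0.992 and 2.71 CPM after EtOH, so the EtOH libraries covered a wide range and EtOH replicate 4 lay within the range of 20E. The pair ratios were 2.23, 2.37, 0.60 and 0.15. Their 95% counting intervals ran from 0.61 to 4.26 in pair 1 and from 1.02 to 4.08 in pair 2, and included 0 in pairs 3 and 4. ND6 was called in neither fit, at a log2 fold change of 0.99 (SE 0.58, adjusted p = 0.972) without the block and 1.09 (SE 0.43, adjusted p = 0.143) with it in edgeR. Without EtOH replicate 4 the log2 fold change was 1.78. ND6 shares bases with CYTB, which went the other way, and the part of fragments touching both genes was not tested.

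lrRNA (AGAP028391, Mt from 12648 to 13972, minus strand) had 174231, 51716, 50223 and 108715 CPM in the 20E replicates, against 195711, 109045, 85594 and 148050.0 CPM in the EtOH replicates. The ranges overlapped widely, with the highest level of either group in its replicate 1. In edgeR lrRNA was not called without the block (-0.48, SE 0.47, adjusted p = 0.999). It was called lower with the block (-0.61, SE 0.19, adjusted p = 0.0727, edgeR). It was not called with the block when pair 2, 3 or 4 was left out, at adjusted p of 0.185, 0.179 and 0.265. srRNA (AGAP028393, Mt from 14045 to 14844, minus strand) had 60.0, 5.33, 4.46 and 18.3 CPM in the 20E replicates and 98.8, 39.3, 10.5 and 12.5 CPM in the EtOH replicates. It was called in neither fit (adjusted p = 0.999 and 0.151, edgeR), and its log2 fold change of -0.89 turned to 0.06 without EtOH replicate 1.

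**Figure D3:**
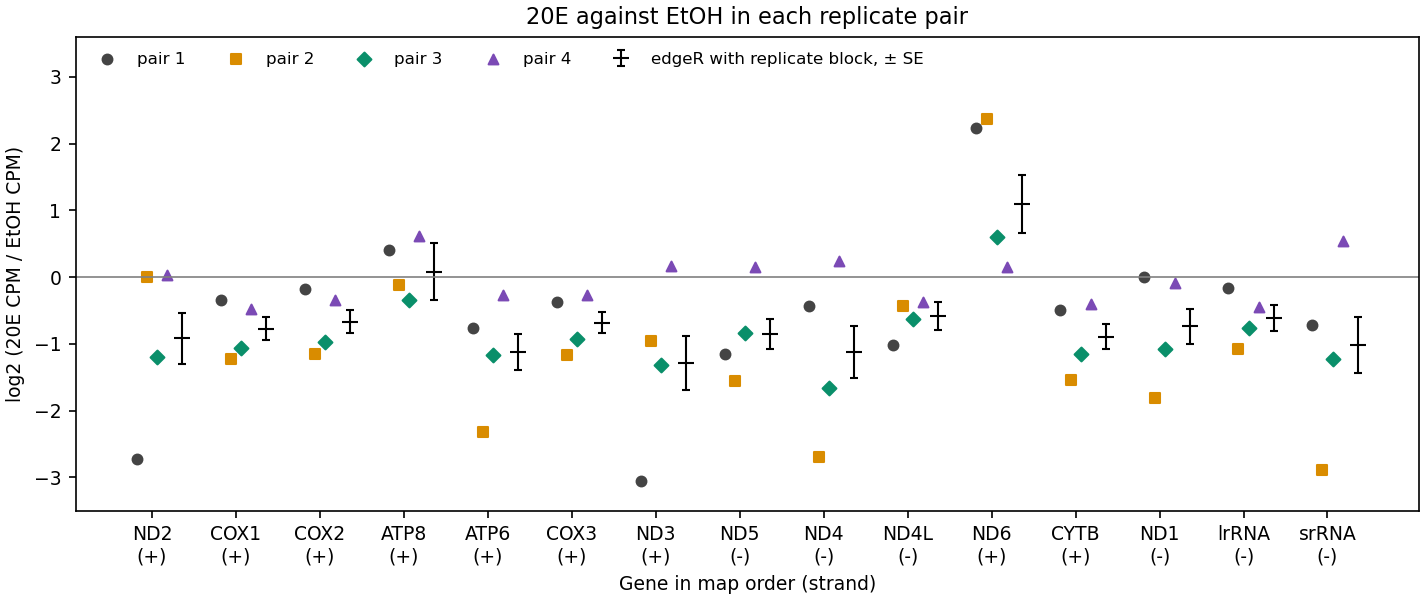
log2 ratio of 20E CPM to EtOH CPM in each replicate pair for the 15 tested mitochondrial genes in map order with their strand, beside the log2 fold change of edgeR with the replicate block (black, ± SE). COX1, COX2, COX3, ATP6, CYTB, ND4L and lrRNA lie below 0 in all 4 pairs, and ND6 lies above 0 in all 4.

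The pairs differed in how far the mitochondrial genes moved. The median pair ratio over the 15 genes was -0.43 in pair 1, -1.17 in pair 2, -1.06 in pair 3 and -0.09 in pair 4. The number of genes lower after 20E was 12, 14, 14 and 8 of 15 in pairs 1, 2, 3 and 4. In pair 4 ND2, ND3, ND4, ND5, ND6, ATP8 and srRNA were above 0, with ratios from 0.03 for ND2 to 0.62 for ATP8. The abundant genes COX1, COX2, COX3, ATP6, CYTB and lrRNA were below 0 in that pair too, at -0.26 to -0.48.

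Whether a gene moved with the rest was also described within the mitochondrial counts, by setting each gene against the sum of all other mitochondrial genes in the same library. lrRNA made up 75.0% to 85.4% of the mitochondrial counts of a library, so for the other genes this base was mostly lrRNA. ND6 was higher after 20E by this measure in 4 of 4 pairs, at 2.43, 3.51, 1.44 and 0.58 on the log2 scale, and so was ATP8 at 0.61, 1.02, 0.49 and 1.05. These were the 2 genes with the fewest counts of the 15, 168 for ND6 and 65 for ATP8 over all libraries. ATP8 had 5 to 11 counts in each library. No interval, test or share over all tested genes was made for this measure, so counting error was not set apart from these differences. COX1 was lower in 4 of 4 pairs, at the small differences of -0.15, -0.11, -0.26 and -0.04. The other 12 genes went both ways. COX2 and COX3 kept within -0.18 and 0.17 in each pair, while ND2, ND3, ND4 and srRNA ranged over more than 2 log2 units.

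With the other protein-coding genes as the base, ND6 and ATP8 were again higher in 4 of 4 pairs, COX2 and COX3 were higher by 0.02 to 0.23, and CYTB was lower at -0.11, -0.25, -0.11 and -0.01. COX1 went both ways on that base. lrRNA was higher against the protein-coding genes in pairs 1, 2 and 3, at 0.22, 0.24 and 0.28, and slightly lower in pair 4 at -0.05.

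**Figure D4:**
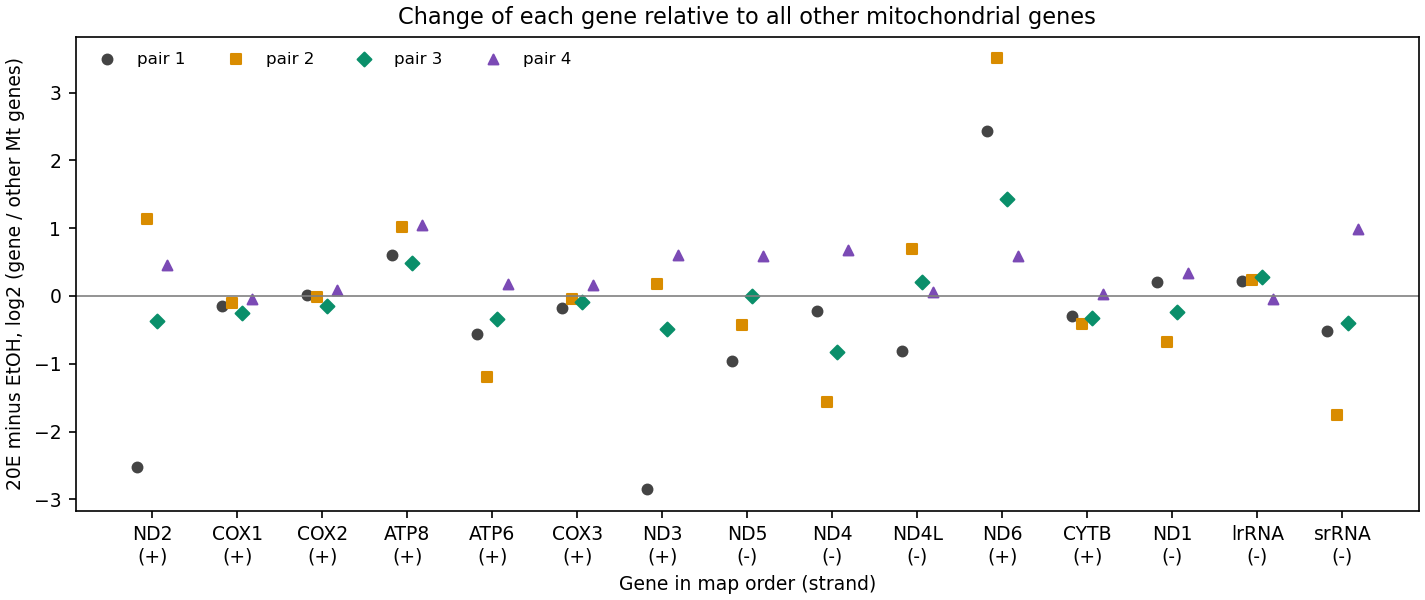
Difference 20E minus EtOH of log2 (count of the gene over the summed count of all other mitochondrial genes), by replicate pair, for the 15 tested genes in map order with their strand. ND6, at 2.43, 3.51, 1.44 and 0.58, and ATP8 lie above 0 in all 4 pairs, and COX1 lies just below it.

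By respiratory complex, the COX genes made up 82.0% ± 2.56 of the mitochondrial protein-coding counts after 20E and 79.4% ± 3.82 after EtOH (SD, n = 4 each). CYTB made up 10.4% ± 1.15 after 20E and 11.2% ± 1.58 after EtOH, and the ATP genes 5.33% ± 1.58 and 6.65% ± 1.72 after 20E and after EtOH. The ND genes made up 2.25% ± 0.387 after 20E and 2.71% ± 0.708 after EtOH. Each difference of means was smaller than the SD of the EtOH replicates. Within the pairs, the log2 ratio of the CYTB share was below 0 in 4 of 4, at -0.10, -0.22, -0.10 and -0.01, and those of the COX, ATP and ND shares went both ways.

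Most mitochondrial mRNA counts came from the plus strand. The 9 protein-coding genes on the plus strand held 97.9% ± 0.395 of the mitochondrial protein-coding counts after 20E and 97.6% ± 0.651 after EtOH, and ND1, ND4, ND4L and ND5 on the minus strand held the rest. The median log2 fold change in edgeR's fit without the block was -0.75 for the 6 tested genes on the minus strand and -0.71 for the 9 on the plus strand. With the block these medians were -0.79 and -0.78. In that fit 2 of 6 minus-strand genes and 6 of 9 plus-strand genes were called lower, where 9.11% of all tested genes were. ND1, ND4 and ND4L on the minus strand lay just past the limit, at adjusted p of 0.101, 0.102 and 0.104 in edgeR. The difference between the strands was not tested, and whether counting used the strand is not stated.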

How the data were processed

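RNA was measured in 4 libraries of 20E-treated and 4 of EtOH-treated Sua 4.0 cells. The deposited file holds whole-number counts per gene, without normalization. The authors mapped read pairs to AgamP4 with STAR 2.5.2b and counted fragments with featureCounts, leaving out multimapped and chimeric reads and fragments with a missing end. The sources used here give neither the strand setting nor which edgeR test and filter were used. The libraries held 6865599 to 14878014 counts, and few counts give little precision.

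Symbols came from RefSeq (idAnoGambNW_F1_1), matched by identical start and end because the identifiers are not shared. RefSeq coordinates were not used otherwise. No sequence is printed. Lists of nuclear respiratory and mitochondrial genes were planned, but were not analysed here, since no table pairing descriptions with these identifiers was used.

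All genes were fitted together with edgeR 4.0.16 in R 4.3.3: TMM, filterByExpr (minimum count 10, minimum total 15), which left 8180 genes, and the quasi-likelihood test with Benjamini-Hochberg adjustment at 0.1, the limit of the study. The main fit had treatment as its only term. Libraries of the same number were taken as pairs, which the sample titles and the study's methods do not state. Their deviations from the group means correlated at 0.646 to 0.835 over 8180 genes, against at most 0.0854 for other pairs. The blocked fit, which rests on this pairing, is therefore given where it changes a call. Libraries of 1 group differed by at least 65.3 in chi-square per degree of freedom, so none was a copy. Alternatives were DESeq2 1.42.0, limma-voom (limma 3.58.1), other scalings and filters, a robust prior, a limit of 0.05 and leaving out libraries. The fits were tested on simulated data. Named in full were the 2 highest genes of each type, genes called in either fit and genes with the sign opposite to the median. The members and lists were chosen with earlier results of these data known.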

Additional observations from a re-analysis of the deposited data

Results flagged for a closer look

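Of 32 groups of 4 libraries examined (15 genes and the mitochondrial share, in 2 groups each), 3 had a library far from the others by Dixon's test, and chance alone gives about 1 in 20. ND3 had 150.2 CPM in EtOH replicate 1, against 17.2 to 19.5 CPM in the other EtOH libraries. COX1 had 14445 CPM in EtOH replicate 3, where the other EtOH libraries had 17914 to 18119 CPM. ATP8 had 0.944 CPM in 20E replicate 1, against 0.663 to 0.693 CPM in the other 20E libraries, and that value rests on 6 counts.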

How the results depend on the processing

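The number of mitochondrial genes called without a block was 0 under RLE scaling, scaling to nuclear genes only, no filter and a filter of 1 CPM in 4 libraries. It was also 0 under DESeq2, limma-voom, a robust prior and a limit of 0.05. All these settings called 0.391% to 2.09% of all genes. With each library left out in turn the number was 0, when 0.192% to 0.784% of all genes were called. The number was 8 with the replicate block, the alternative that uses the pairing. Settings added after the data had been seen combined the block with nuclear scaling (9 of 15 called, against 17.5% of all genes), no filter (12 of 24, 13.2%), DESeq2 (7 of 15, 14.8%) and limma-voom (10 of 15, 19.5%). Leaving out 1 pair gave 4 to 11, namely 9 of 15, then 6, 4 and 11 of 14 without pairs 1, 2, 3 and 4, when 15.9%, 15%, 10.3% and 10.7% of all genes were called. COX1, COX3, ATP6 and CYTB were called in 9 of 9 blocked fits, COX2 in 8, ND5 in 7, lrRNA in 6 and ND3 in 5. Of the genes not among the 8, ND1 was called in 5 of 9, ND4 in 4, ND2 in 3, srRNA in 2, and ND4L and ND6 in 0. COX2 was lost without pair 3 (adjusted p = 0.128 by edgeR), and ND5 without pair 2 or 3 (0.111 and 0.110). A fit with fewer pairs has fewer libraries. The direction turned for ATP8 without 20E replicate 1 (-0.0085) and without EtOH replicate 4 (-0.061), and for srRNA without EtOH replicate 1 (0.063), and the cause was not tested. With 1 library left out, the log2 fold change ranged from -0.061 to 0.15 for ATP8 and from -2.10 to 0.063 for srRNA. The log2 ratio of the mean mitochondrial shares was -0.45, and ranged from -0.62 to -0.30 with 1 pair left out. It was -0.64 without the rRNA genes. The number of genes that went the same way in all pairs relative to the other mitochondrial genes was 3, and 5 with the protein-coding genes as the base. It ranged from 3 to 10 with 1 pair left out, the highest without pair 4. With 1 pair left out fewer pairs have to go the same way, so a higher number is reached more easily. Of 9 tRNA genes with any count, 0 had at least 10 in every library. Over all genes, 65 were called without the block, 1427 with it, 195 by DESeq2 and 32 at a limit of 0.05, and 16 to 65 with 1 library left out. Depth limits ATP8, ND6 and the tRNA genes. The planned lists of nuclear genes were not run.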
